A study of Danio rerio with 12 samples.

Results

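Gene expression in zebrafish larvae that received iron oxide nanoparticles with a dextran coat (labelled Dx-IONP) was set against that in larvae of the group labelled IC, gene family by gene family and tissue by tissue. All genes with at least 1 count per 1000000 scaled reads (CPM) in either library entered, 16503 of the 19983 genes in the deposited table. Every larva carried the transgene Tg(fli:EGFP), in which the fli promoter drives a green fluorescent protein in endothelium, and RNA was taken at 120 hours post fertilization from pools of 20 embryos. The treatment of the third pool, Control, was given only as control. The labels leave IC unexplained, and it can be read as the iron group only because the protocol names control, iron and nanoparticle conditions. Dose, duration and the form of iron are not given in the sources used here. Each pool gave 1 poly(A) library run on 4 lanes, so the lanes are repeat runs and n = 1 library per condition. Conditions could therefore not be tested against each other, and "higher" and "lower" below always refer to the Dx-IONP library relative to the IC library, which is a comparison of 2 pools. Where 3 levels follow each other without names, they are those of Dx-IONP, IC and control, in that order.

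Iron oxide nanoparticles hold an iron oxide core inside a sugar coat that keeps them dispersed, and cells that take them up degrade them in lysosomes, from which iron can enter the ferritin pool. A zebrafish larva of this age has hatched, swims and sees, and has beating heart, working liver, gut and pancreas, and a skin with ion-transporting cells. RNA from whole animals mixes all of these, and each organ is read through genes that are largely restricted to it. The ribosome, the proteasome and the respiratory chain are, in contrast, made by every cell.

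A gene was counted as higher or lower where its ratio was at least 2-fold and the exact 95% counting interval of that ratio excluded 1, which covers counting error only. By this rule 4014 genes (24.3% of those tested) were higher and 4322 (26.2%) were lower in Dx-IONP, while 8167 were neither. At least 4-fold apart were 1267 higher genes (7.68%) and 2137 lower genes (12.9%). Scaled to total reads alone, in place of the trimmed mean of M-values (TMM) used throughout, the split was 2898 higher and 5257 lower, because the median gene then lay at -0.26 on the log2 scale against 0.05. The quartiles of all genes lay at -1.07 and 0.98 on the log2 fold scale. The shares in each direction differed with level. Of the 156 genes above 1000 CPM in the higher library, 53.2% were higher and 16.03% lower, whereas of the 5305 genes between 1 and 10 CPM, 21.3% were higher and 30.7% lower. Fewer genes filled the Dx-IONP library, in which 270 genes took 50% of the reads, against 556 in IC and 568 in control.

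**Figure D1:**
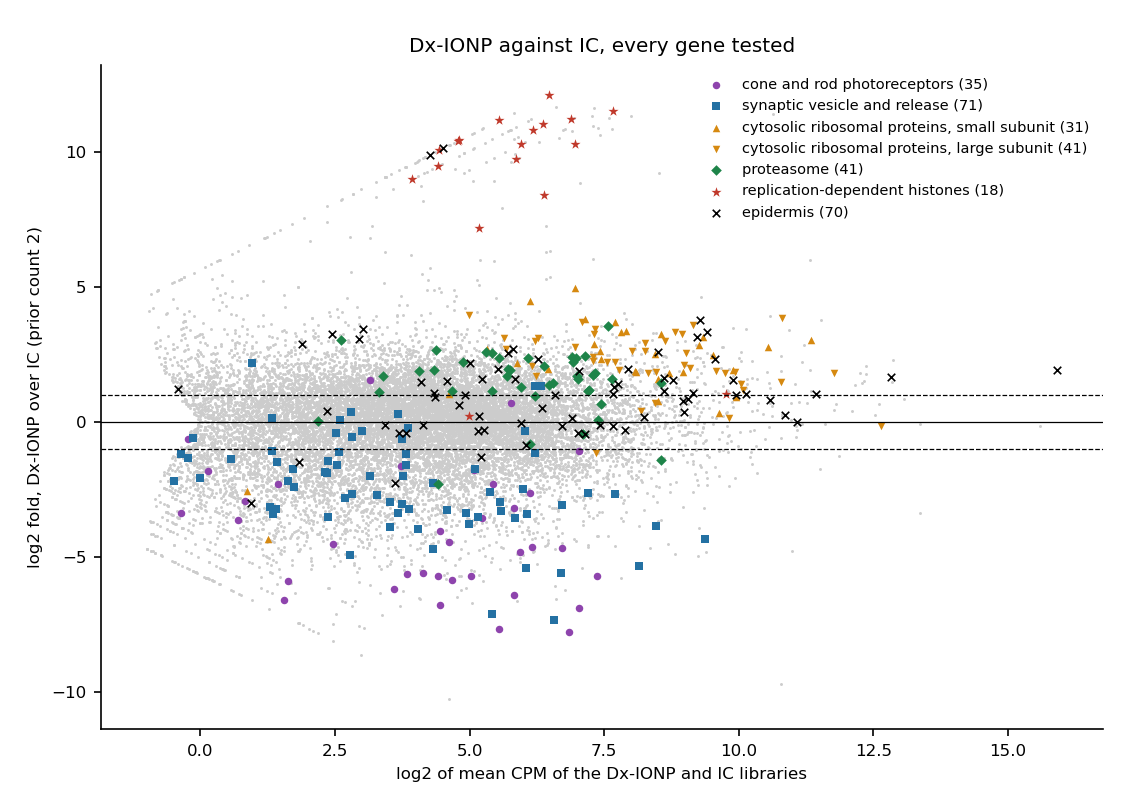
Log2 fold of Dx-IONP over IC (vertical axis) against the log2 mean level in the 2 libraries (horizontal axis, CPM) for all 16503 genes tested, with 7 gene lists marked and dashed lines at 2-fold. Photoreceptor and synaptic vesicle genes lie mostly below the lower line, ribosomal and proteasome genes mostly above the upper line, and 17 of 18 replication histone genes above it; the diagonal rows of points are genes with 0 or a few reads in 1 library.

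The libraries held 55381504 (Dx-IONP), 48283541 (IC) and 84043873 (control) reads, and 0 reads allow up to 0.0632 CPM in Dx-IONP and 0.0590 in IC. Of 21 markers used to check that whole larvae had been sampled, 16 could be matched, and 12, 15 and 15 of the matched markers reached 1 CPM in Dx-IONP, IC and control. Skin, eye, heart, vessel and blood markers reached that level in all 3 libraries. The matched gene SLC20A1, a phosphate carrier used for the pronephros, had 0 reads in all 3. Missing from Dx-IONP at that level, and present in the other 2, were the hepatocyte marker fabp10a and the pancreatic protease genes prss1 and ctrb.1. The deposited counts are estimates, so a listed 0 need not mean that RNA was absent, and bounds set against 0 reads cover counting error only. The library names of all pools share the same LIB number. Their TRA number is consecutive for the IC and control pools and stands apart for the Dx-IONP pool, and the labels do not say what it counts. Whether the pools were prepared together is not given, so a difference of preparation and the treatment cannot be told apart in any comparison below.

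The 143 lists used to describe the data held 38 tissues, 17 pathways and 88 families, and 4061 of the genes tested were in at least 1 of them. Medians are over the measured members on the log2 fold scale, beside 0.05 for all genes. Of the 142 lists with at least 5 measured members, 20 had a median at least 2-fold higher and 17 a median at least 2-fold lower in Dx-IONP. With scaling to total reads these numbers were 12 and 29. In 89 lists at least 3 members were higher and at least 3 were lower. Members on both sides are also what all genes show, with 24.3% higher and 26.2% lower. The tissues ran from photoreceptors and neurons at the low end to yolk, blood and skin at the high end.

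**Figure D2:**
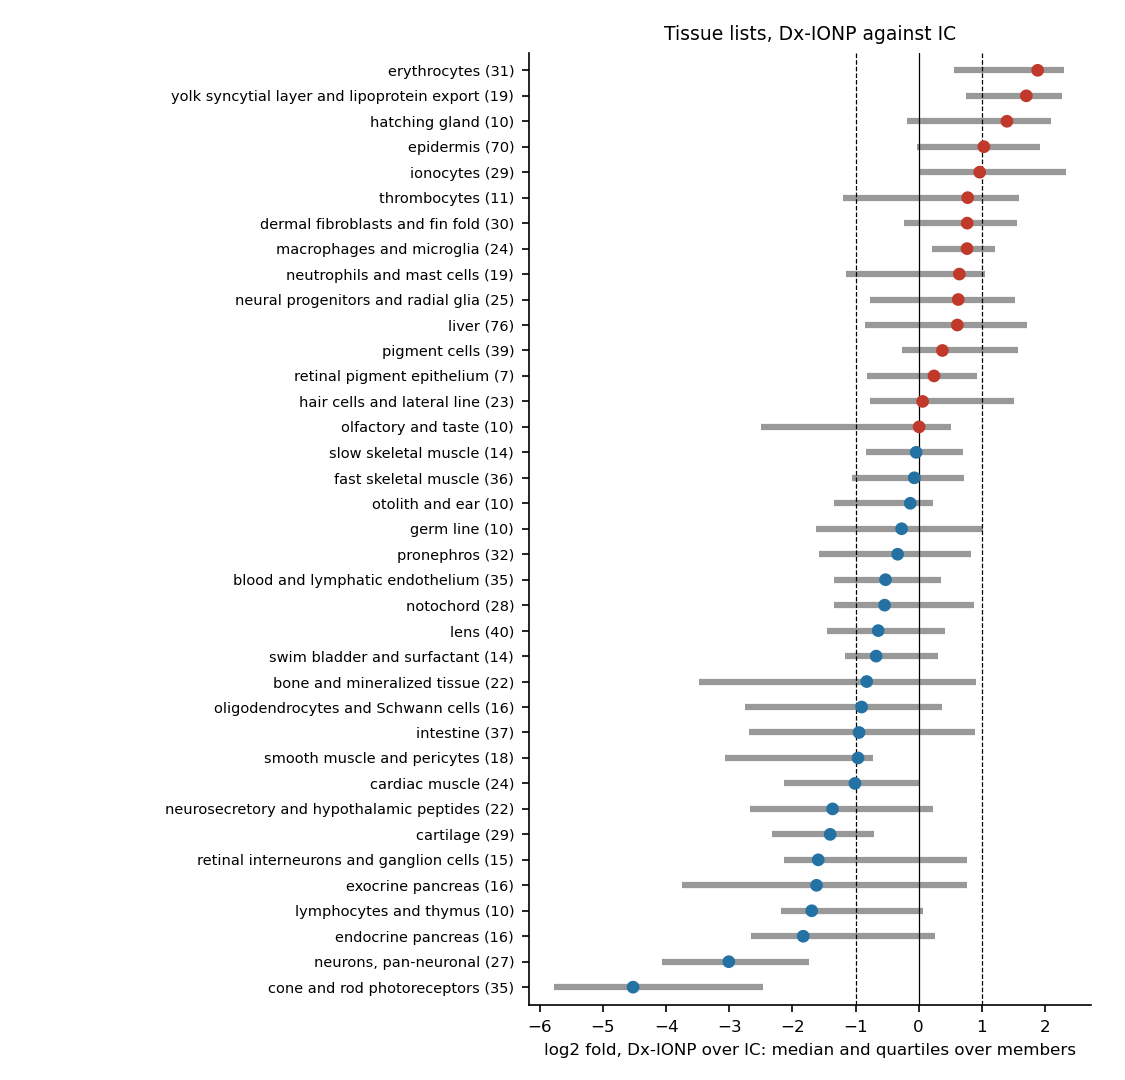
Median log2 fold of Dx-IONP over IC for each tissue list with at least 5 measured members (points, red above 0 and blue below), with a grey bar from the lower to the upper quartile of the members and the number measured in parentheses. Photoreceptors (-4.52) and neurons (-3.01) lie lowest, erythrocytes (1.89) and the yolk syncytial layer (1.71) highest, and dashed lines mark 2-fold.

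The eye was the organ with the lowest values. Of the 35 photoreceptor genes measured, 32 were lower and 1 was higher, and their median stood at -4.52 (-4.51 for Dx-IONP over control and -0.77 for IC over control, which share the control library). Cones and rods catch light with opsins and pass the signal on through transducin. OPN1SW (ENSDARG00000045677), the short-wavelength cone opsin, had 4.23 CPM in the Dx-IONP, 3509 in the IC and 2484 in the control library. The ranges over lanes, which show the scatter of repeat runs only, were 3.23 to 5.67 CPM in Dx-IONP and 3491 to 3531 in IC. The level was 821-fold lower (log2 fold -9.68, counting interval -9.90 to -9.50). The cone transducin gene GNAT2 had 2.17, 259.5 and 496 CPM, 117-fold lower, and the photoreceptor transcription factor crx 8.07, 203 and 221 CPM. NXNL1, which encodes a cone viability factor made by rods in mammals, had 0.0421, 16.3 and 4.36 CPM. In the whole larva, fewer cells of a type and less RNA per cell cannot be told apart, and this holds for every tissue below.

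The other parts of the eye did not follow the photoreceptors in full. The 23 measured opsins include non-visual ones, and here 5 were higher and 12 lower. OPN5, a violet-sensing opsin expressed outside the retina too, had 19.3 CPM in the Dx-IONP, 5.23 in the IC and 1.72 in the control library, and parietopsin, a non-visual opsin, 1.62, 0.334 and 0.548 CPM. The ganglion cell factor POU4F2 was lower (6.32, 104 and 74.1 CPM), as were 10 of 15 interneuron and ganglion cell genes, although the summed level of that list was higher (4868 against 1832 CPM) through apoeb, which is also made elsewhere. Of 7 pigment epithelium genes 2 were higher and 2 lower, with RPE65 (ENSDARG00000094752), which regenerates the visual chromophore, at 355, 55.1 and 53.2 CPM. The crystallins, which make the lens transparent, also split. CRYBA4 had 46.9, 1300.3 and 99.8 CPM, so the IC library stood apart from the other 2. The gamma crystallins crygm2d8 (295, 1512 and 861 CPM) and crygm2d3 (554, 149 and 900.3 CPM) lay in opposite directions, and over the 36 crystallins 13 were lower and 2 higher.

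Most neuronal genes were lower in each of the classes listed here. Of 27 pan-neuronal genes 21 were lower (median -3.01), of 71 synaptic vesicle and release genes 57 (median -2.41), and of 69 transmitter-gated receptor genes 54 (median -2.58). Of all genes, 26.2% were. Against control, the vesicle genes had a median of -2.54 in Dx-IONP and 0.17 in IC, and the receptor genes -2.51 and 0.04. The pan-neuronal genes had -3.25 and -0.55. The IC library thus lay near control for vesicle and receptor genes and somewhat below it for pan-neuronal genes. The Dx-IONP library lay far below both in each class.

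On the presynaptic side, sv2ba, a glycoprotein of synaptic vesicles, had 1.14 CPM in the Dx-IONP, 189 in the IC and 84.5 in the control library, a log2 fold of -7.33 (-7.79 to -6.99). CPLX4 (ENSDARG00000059978), a complexin of ribbon synapses, had 0.569, 84.7 and 58.2 CPM and syn1, which tethers vesicles, 4.17, 204 and 203 CPM. The calcium sensor SYT1 had 45.9, 663 and 563 CPM and the vesicle protein gene sypa 62.6, 1262 and 665 CPM. The 3 members that were higher are not confined to neurons: unc13d (3.201, 0.669 and 0.720 CPM), which primes granules for release in blood cells, and the synaptogyrins syngr2a (107, 42.5 and 15.9 CPM) and SYNGR2 (114.1, 45.7 and 27.3 CPM).

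Among the receptors, the AMPA-type glutamate receptor genes GRIA2 had 3.62, 118 and 70.4 CPM (ENSDARG00000052765) and 4.99, 53.6 and 102 CPM (ENSDARG00000070173). GABRA4, a GABA receptor subunit, stood at 0.0211, 3.26 and 1.98 CPM. The muscle receptor of the neuromuscular junction did not share this: its subunit genes CHRNE and CHRNA1 had 80.2, 73.6 and 31.3 and 57.1, 63.6 and 34.2 CPM and were neither higher nor lower. One glycine receptor gene, glra4a, was higher, with 69.9 CPM in the Dx-IONP, 2.06 in the IC and 3.05 in the control library. Voltage-gated channels repeated the pattern, with 61 of 80 lower, 4 higher and a median of -1.62. The potassium channel gene kcnb2a had 0.316, 33.6 and 20.5 CPM and CACNG2 (ENSDARG00000032565), an auxiliary subunit that carries AMPA receptors, 1.01, 55.1 and 41.8 CPM. The skeletal muscle calcium channel genes were also lower but by less, CACNA1S with 34.9, 79.8 and 24.7 CPM and CACNG1 (ENSDARG00000008772) with 82.9, 173 and 56.7 CPM.

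Most adhesion genes of axons and synapses were lower as well. Of 39 neurexin, neuroligin, contactin and neurotrophin genes 32 were lower, with the axonal adhesion gene CNTN1 at 2.49 CPM in the Dx-IONP, 82.5 in the IC and 50.9 in the control library. The node-of-Ranvier gene NFASC had 39.3, 169.9 and 87.4 CPM. The protocadherins, whose clustered members give single neurons a surface identity, were lower for 26 of 46 and higher for 3. The clustered pcdh1g26 (0.779, 26.3 and 42.96 CPM), pcdh1g9 (16.9, 316 and 205 CPM) and pcdh2g28 (163, 445 and 312 CPM) were lower, while the non-clustered pcdh20l was higher (62.1, 12.4 and 19.7 CPM). Of the 18 sodium pump subunits, the neuronal alpha subunit atp1a3a had 44.6, 299.8 and 562 CPM, and atp1a1a.3, an alpha subunit of skin ionocytes, had 90.9, 20.6 and 26.2 CPM. Kinesins with different work lay on both sides. The axonal transport motors KIF1A (31.9, 318 and 167 CPM) and KIF5A (61.3, 326 and 265 CPM) were lower, whereas KIF22 (57.1, 12.9 and 27.1 CPM), a motor of mitotic chromosomes, was higher, and KIF23, a motor of cell division, had 0 reads in IC against 908 in Dx-IONP and 1021 in control.

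Genes of neural progenitors were not lower as a group. Of 25 progenitor and radial glia genes 9 were higher and 5 lower. The 5 lower ones as matched by name included DES (ENSDARG00000005221), a muscle filament gene. Among the higher ones were genes of Notch signalling, which keeps progenitors from becoming neurons. The receptor gene NOTCH1 (ENSDARG00000052094) had 217 CPM in the Dx-IONP, 32.9 in the IC and 24.3 in the control library. The ligand gene dlb had 229, 70.4 and 50.9 CPM. The target gene her4.3 had 141, 24.9 and 29.7 CPM. In all of these the Dx-IONP library was high and IC lay near control. Among the lower ones were the neuronal differentiation factors NEUROD1 (32.6, 192 and 204 CPM) and NEUROD4 (76.7, 226 and 138 CPM) and PAX6 (23.8, 176 and 278 CPM), which acts in eye and brain. Glial genes went both ways. GFAP, the astroglial filament, had 236, 614 and 483 CPM. SLC1A2 (ENSDARG00000102453), a glial glutamate carrier, had 101, 894 and 1058 CPM and SLC1A3 (ENSDARG00000104431), the other one, 301, 34.8 and 53.4 CPM. The GABA carrier slc6a11a, glial in mammals, was higher (65.2, 11.5 and 8.69 CPM). Of 16 myelin genes 8 were lower and 3 higher. The myelin basic protein gene mbpa (1.16, 117 and 26.6 CPM) and the lineage factor olig1 (0.969, 14.002 and 8.30 CPM) were among the lower. Neuropeptide genes were lower for 12 of 22, with the peptide-processing enzyme CPE at 57.1, 549 and 438 CPM and the thyrotropin-releasing hormone gene TRH at 0.337, 14.02 and 7.94 CPM.

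Skeletal muscle made up a large part of the RNA. Of 36 fast muscle genes 8 were higher, 9 lower and 19 neither, beside 24.3% higher and 26.2% lower of all genes. Their median was -0.07, beside 0.05 for all genes, and they summed to 93059 CPM in Dx-IONP and 94489 in IC. The calcium buffer gene pvalb1 made up much of both sums, with 46964 CPM in the Dx-IONP, 52393 in the IC and 25339.8 in the control library. TTN, the titin gene that spans the sarcomere, had 651, 664 and 174 CPM. Isoforms differed within the list. The fast myosin heavy chain myhz1.1 was lower (2190.0, 5272 and 2029 CPM), while the slow chain smyhc1 (1535, 531 and 344 CPM) and pvalb4 (1447, 209 and 831 CPM) were higher. Of 24 heart genes 12 were lower and 3 higher (median -1.01). The atrial natriuretic peptide gene nppa had 3.24, 43.1 and 7.499 CPM, so that the IC library was high and the other 2 were low. The other heart peptide gene, nppb, had 3.41, 5.76 and 1.06 CPM and was neither. NEXN, an actin-binding gene of the Z disc, had 5.96, 51.96 and 52.01 CPM, low in Dx-IONP alone. MEF2C, a factor for heart muscle and other muscle, had 39.8, 263 and 98.1 CPM. TBX5, a factor for heart and pectoral fin, was higher (8.82, 1.73 and 1.29 CPM). Of 18 smooth muscle genes 8 were lower, among them acta2 (4.74, 42.8 and 95.5 CPM) and MYH11 (ENSDARG00000009782, 2.67, 31.5 and 34.7 CPM).

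In the vessel wall, which the transgene of this line marks, 23 of 35 endothelial genes were neither, 10 lower and 2 higher. Of all genes, 24.3% were higher and 26.2% lower. The median of the list was -0.52. Its summed level was 650 CPM in the Dx-IONP, 1295 in the IC and 676 in the control library. The receptor kdrl had 31.6 CPM in the Dx-IONP, 30.4 in the IC and 22.98 in the control library, and its counting interval (-0.05 to 0.16) included 0. The junction gene cdh5 (37.2, 126 and 31.4 CPM) and the receptor partner ramp2 (22.8, 136 and 21.7 CPM) were lower against an IC library that was high relative to both others. Of the 2 genes for the arterial ligand EFNB2, ENSDARG00000020164 had 78.7, 400.4 and 150.3 CPM and ENSDARG00000074050 6.21, 5.76 and 5.59 CPM.

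Red cell genes stood at the high end. Of 31 erythrocyte genes 21 were higher and 2 lower, and their median was 1.89 (1.31 for Dx-IONP over control and -0.12 for IC over control). The embryonic globin hbbe3 had 728 CPM in the Dx-IONP, 1.1996 in the IC and 3.49 in the control library, 587-fold higher. The alpha globin hbae1.3 had 1738, 154 and 686 CPM, which puts IC lowest. SLC25A37, which carries iron into the mitochondria of red cell precursors, had 17.96, 1.14 and 0.784 CPM. In the haem pathway, which feeds the globins, 8 of 14 genes were higher and none was lower, with the first enzyme of red cells, alas2, at 605, 107 and 85.8 CPM and ALAD at 108, 23.7 and 43.8 CPM. Thrombocyte genes held 5 higher and 3 lower members of 11.

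Immune genes lay on both sides of the comparison, as did all genes (24.3% higher and 26.2% lower), but not evenly in every list. The list of inflammatory cytokines and acute phase genes was mostly higher, with 27 of 44 higher and 4 lower (median 1.39). Its median over control was 0.98 in Dx-IONP and -0.30 in IC. Of 24 macrophage genes 10 were higher and 4 lower, and the pore-forming genes MPEG1 had 10.4, 4.56 and 4.48 CPM (ENSDARG00000043093) and 11.8, 10.9 and 10.03 CPM (ENSDARG00000055290), the second neither higher nor lower. Among neutrophil genes the lysozyme gene lyz (62.97 CPM in the Dx-IONP, 13.8 in the IC and 32.7 in the control library) and the homing receptor CXCR4 (ENSDARG00000057633, 51.8, 6.21 and 5.07 CPM) were higher, and 5 of 19 were higher as against 5 lower. Lymphocyte and thymus genes were lower for 7 of 10 measured, with 18 below 1 CPM. The thymus chemokine gene ccl25a had 0.695, 32.9 and 15.6 CPM, while foxn1, the thymic epithelium factor that skin also uses, had 12.4, 4.52 and 4.44 CPM. Among other chemokines, CXCL12 (36.9, 533 and 110.0 CPM), which guides migrating cells, was lower and CXCL14 (238, 57.9 and 52.7 CPM), which skin makes, was higher. The inflammatory caspase caspb, which cuts pro-interleukin in fish, had 906, 112 and 71.0 CPM, and nfkbiab, an inhibitor and target of NF-kappaB, 87.9, 10.8 and 38.5 CPM. Interferon genes lay on both sides. The antiviral GTPase gene mxc was higher (17.5, 2.99 and 5.50 CPM), whereas the signal carrier stat2 was lower (8.44, 34.1 and 14.6 CPM).

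The liver list held members on each side, beside 24.3% higher and 26.2% lower of all genes. Of 76 liver genes 31 were higher and 18 lower (median 0.61). Apolipoproteins, which carry lipid from liver, gut and the yolk syncytial layer, were higher for 12 of 18 and summed to 38729, 9864 and 39288 CPM. For this family the IC library was the one that lay apart, with a median of -1.78 over control against -0.49 for Dx-IONP. The lipoprotein scaffold apobb.1 had 12322 CPM in the Dx-IONP, 2538 in the IC and 6623 in the control library, and apoeb, an apolipoprotein of yolk and macrophages, 3566, 335 and 1846 CPM. The exceptions, lower in Dx-IONP, were APOD (ENSDARG00000060350, 0.400, 3.44 and 31.9 CPM) and apof (9.16, 66.1 and 34.9 CPM). Of 26 clotting genes 6 were higher, 5 lower and 15 neither, beside 24.3% higher and 26.2% lower of all genes. The fibrinogen chain FGG (376, 42.9 and 225 CPM) and prothrombin f2 (269.5, 50.96 and 135 CPM) were higher. The antiplasmin gene serpinf2a was lower, with 0.0421, 11.3 and 15.8 CPM.

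The following hepatocyte enzymes and carriers were far lower, although more genes of the liver list were higher (31 of 76) than lower (18). The fatty acid carrier fabp10a had 0.590 CPM in the Dx-IONP, 65.8 in the IC and 160.1 in the control library. The tryptophan-degrading enzyme TDO2 had 0.0842, 12.4 and 34.8 CPM, and the vitamin D carrier GC 0.0421, 6.69 and 13.13 CPM. CYP7A1, the first enzyme of bile acid synthesis, had 0.379, 7.14 and 11.01 CPM, and CYP8B1 of the same pathway 0.484, 10.29 and 19.8 CPM. The bile acid receptor NR1H4 had 0.211, 3.99 and 7.82 CPM. In each of these the order was Dx-IONP, IC, control from low to high. Another enzyme of the liver list, TAT, was higher (5.54, 0.511 and 2.14 CPM). Complement genes split even between neighbours of 1 gene cluster, c3a.1 with 632, 154 and 645 CPM and c3a.2 with 0.0421, 2.38 and 6.82 CPM.

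In the gut, 18 of 37 genes were lower and 9 higher, with a median of -0.94 that turned to 1.07 among genes of at least 10 CPM. The summed level of the list was higher (13294 against 3516 CPM), mostly through apobb.1, which liver and yolk also make. Genes of absorptive cells lay on both sides. Among the lower, the brush border gene VIL1 had 2.04 CPM in the Dx-IONP, 193 in the IC and 130.3 in the control library. The peptidase ANPEP had 0.190, 8.10 and 12.99 CPM (ENSDARG00000103878) and the amino acid carrier SLC6A19 (ENSDARG00000091560) 0.337, 11.4 and 7.99 CPM. The gut factor cdx1b had 0.569, 53.96 and 13.2 CPM. Higher was the fatty acid carrier FABP2 (92.2, 19.8 and 146 CPM), also a gene of absorptive cells. Genes of mucus-secreting cells were higher too, such as AGR2 (293, 119.6 and 116 CPM), which folds mucins and is also made in skin. Exocrine pancreas genes were lower for 8 of 16 measured, while 19 lay under 1 CPM in both libraries. The zymogen gene CPB1 had 1.22, 16.4 and 26.2 CPM, and the lineage factor PTF1A, which neurons also use, 10.6, 1.77 and 4.48 CPM. Of 16 endocrine genes 9 were lower and 0 higher. Several of those are shared with neurons, among them ISL1 (29.1, 217 and 137 CPM), whereas insulin itself (ins) had 4.76, 3.87 and 21.9 CPM, so that Dx-IONP and IC both lay below control.

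Kidney and skin ionocytes share many transporters. Of 29 ionocyte genes 13 were higher and 3 lower. The ammonia channel RHCG (ENSDARG00000003203) had 235 CPM in the Dx-IONP, 45.4 in the IC and 16.1 in the control library, highest in Dx-IONP and lowest in control. The ionocyte factor foxi3a had 26.4, 8.77 and 11.9 CPM, and the skin tight junction gene cldnb 89.5, 15.06 and 25.2 CPM. Of 7 genes with the symbol KCNJ1, a potassium channel of ionocytes and kidney tubules, 5 were higher and the other 2 were neither, and the most abundant of the 5, ENSDARG00000090635, had 21.4, 0.236 and 1.55 CPM. The 7 share a symbol, and reads of similar genes may have been divided unevenly among them. The 5 higher ones are counted both in the ionocyte list above and in the kidney list that follows. Of 32 kidney genes 7 were higher and 10 lower, beside 24.3% higher and 26.2% lower of all genes. The tubule glucose carrier SLC5A2 had 0.0842, 4.90 and 3.58 CPM, but the anion carrier slc22a7a 191, 52.3 and 67.4 CPM. Hair cell genes were mixed, with the calcium buffer pvalb9 at 106, 9.05 and 147 CPM and the motor MYO7A (ENSDARG00000044632) at 2.74, 18.98 and 15.7 CPM. The swim bladder surfactant gene sftpba had 0 reads in Dx-IONP against 434 in IC and 117 in control.

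In cartilage the IC library stood far from control. Of 29 cartilage genes 20 were lower and 1 higher in Dx-IONP (median -1.40), but the medians of both libraries lay above control, by 0.73 for Dx-IONP and 2.21 for IC. COL2A1, the main collagen of cartilage and notochord, had 1337 CPM in the Dx-IONP, 4493 in the IC and 812 in the control library. MATN3 (ENSDARG00000069245), a matrilin of cartilage matrix, had 77.4, 417 and 41.1 CPM. CLEC3A had 0.779, 46.4 and 2.06 CPM and OTOS 2.78, 189 and 23.6 CPM, so that IC was the high library in each. The hypertrophic cartilage and bone collagen COL10A1 (ENSDARG00000054753) had 33.8, 425 and 99.8 CPM. Bone genes went both ways, 10 of 22 lower and 4 higher. Lower were ENTPD5 (0.969, 16.2 and 4.81 CPM), which is needed for mineral deposition in fish, and the mineral-binding scpp5 (0.0632, 4.94 and 2.91 CPM). Higher were the type I collagen COL1A2 (2163, 908 and 613 CPM), which skin fibroblasts make too, and the homeobox gene DLX3 (96.7, 20.4 and 38.8 CPM). Over 36 collagens 15 were lower and 4 higher, and the skin anchoring collagen col17a1b was among the higher (53.6, 11.13 and 11.98 CPM).

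Skin genes were higher more often than lower. Of 70 epidermal genes 37 were higher and 4 lower, with a median of 1.03 (1.37 for Dx-IONP over control, 0.16 for IC). Keratins, the filaments of epithelial cells, summed to 120121, 36940.0 and 28945 CPM, although 8 of the 15 genes were neither. Most of that sum was krt4, a keratin of the outer skin layer (97329.6 CPM in the Dx-IONP, 25649 in the IC and 14904 in the control library). The keratin krt5 had 2171, 2179 and 5096 CPM. Of the desmosome, which joins skin cells, the plakin genes PPL (1236, 122 and 188 CPM) and DSP (623, 103.4 and 78.4 CPM) were higher. The cadherin cdh27 had 204, 16.5 and 11.14 CPM. E-cadherin, cdh1, had 538, 239.6 and 124 CPM. Neuronal cadherins lay on the other side, CDH13 with 0.442, 9.11 and 10.6 CPM and cdh4 with 3.92, 21.99 and 33.0 CPM, so the 27 cadherin and desmosome genes counted 6 higher and 11 lower. Gap junction and claudin genes also lay on both sides. The skin connexin GJB6 had 133.6, 53.6 and 21.8 CPM and the neuronal GJD2 4.80, 44.2 and 25.9 CPM. The skin claudin cldne had 273, 132 and 75.7 CPM and the gut claudin cldn15lb 0.232, 17.6 and 7.68 CPM.

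Below the skin, the basement membrane genes lamc1, a laminin chain (307 CPM in the Dx-IONP, 70.6 in the IC and 102.7 in the control library), and HSPG2, perlecan (194, 46.4 and 24.1 CPM), were higher, as was the hemidesmosome integrin ITGB4 (234.5, 73.1 and 36.6 CPM). FREM2 (ENSDARG00000076856), which anchors fin-fold skin to the dermis, had 481, 38.8 and 31.5 CPM, and POSTN (ENSDARG00000104267), periostin, 7299, 2665 and 1621 CPM. Of 30 fin-fold and dermal genes 14 were higher and 3 lower, and the lower ones included col6a1 (112, 434 and 126 CPM). The membrane serine protease st14a (302, 85.2 and 73.4 CPM) and its inhibitor spint2 (586, 192 and 126 CPM), which keep the skin barrier, were both higher. The disulfide isomerase agr1 had 1161, 83.8 and 149 CPM, and the annexin anxa1c 1072, 121.5 and 200.2 CPM. Pigment cell genes held 11 higher and 8 lower members of 39, beside 24.3% higher and 26.2% lower of all genes. The yellow-pigment pathway gene gch2 (1206, 216 and 279 CPM) and the melanin genes TYR (119.5, 28.9 and 22.8 CPM) and SLC24A5 (94.1, 25.7 and 18.1 CPM) were higher, and pmelb (49.5, 196 and 213 CPM) and GPNMB (84.3, 321 and 197 CPM) lower. Of 10 hatching gland genes 6 were higher and 2 lower. The hatching protease gene he1.3 had 109 reads in Dx-IONP and 0 in both others, at least 38.9-fold higher than in IC at a floor of 3 counts.

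Cytoskeletal and matrix families held members on both sides, beside 24.3% higher and 26.2% lower of all genes. Among tubulins tubb2b had 842 CPM in the Dx-IONP, 195 in the IC and 436 in the control library and tuba2 72.0, 297 and 267 CPM. The non-muscle actin actb1 was neither, with 7566, 4804 and 3941 CPM. Myosins counted 6 higher and 15 lower of 46. The fast myosin genes myhb (3.83, 114.3 and 136 CPM) and myhz1.1l (2.25, 82.2 and 94.9 CPM) were lower, and MYO5A, which moves pigment granules and vesicles, was higher (102, 27.8 and 18.6 CPM). Cilium genes held 22 higher and 6 lower members of 75. The 2 genes for the integrin chain ITGB1 lay in opposite directions, ENSDARG00000053232 with 249, 57.9 and 38.1 CPM and ENSDARG00000071863 with 125, 304 and 82.4 CPM. Among proteoglycans, the brain form bcan (2.19, 45.3 and 46.97 CPM) and the cartilage form acana (9.10, 59.8 and 7.97 CPM) were lower, IC alone being high for the cartilage form, and vcana was higher (6.59, 0.747 and 1.76 CPM). The notochord list counted 7 higher and 11 lower of 28, with the cartilage collagen col9a3 at 228, 1135 and 161 CPM and CAV1, which coats the surface pits of notochord and skin cells, at 900.1, 1169 and 249 CPM. The pituitary hormones were scarce. The growth hormone gene gh1 had 1.31, 3.76 and 2.75 CPM and the prolactin gene prl 0.969, 3.11 and 2.18 CPM, both lower.

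Of the housekeeping machines, the ribosome differed most. Of 31 small-subunit proteins 26 were higher and 2 lower, and of 41 large-subunit proteins 36 and 1. The medians were 2.49 and 2.23, against 24.3% of all genes higher and an overall median of 0.05. Against control, the small-subunit median was 0.35 in Dx-IONP and -1.87 in IC, so IC lay farther from control than Dx-IONP did. RPS2 had 4644 CPM in the Dx-IONP, 563 in the IC and 1181 in the control library, RPL13A 3337, 232 and 2306 CPM and RPS21 241, 7.67 and 103.1 CPM, IC being the lowest for all of these. RPLP0, of the ribosomal stalk, had 6080.2, 6665 and 3706 CPM and was neither. Elongation and release factors did not follow the ribosome as a family, with 5 of 14 higher, 3 lower and a median of -0.18. The elongation factor eef1a1l1 was higher (10799.5, 3840.3 and 7980.0 CPM). Of 28 tRNA synthetases 11 were higher and 0 lower. Initiation factors held 1 large exception. The 37 genes had a median of 0.87 and 17 higher members, but their summed level was lower (10867 against 24282 CPM), since EIF1B had 1884, 19334 and 554 CPM. For this gene the IC library stood apart from both others.

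**Figure D3:**
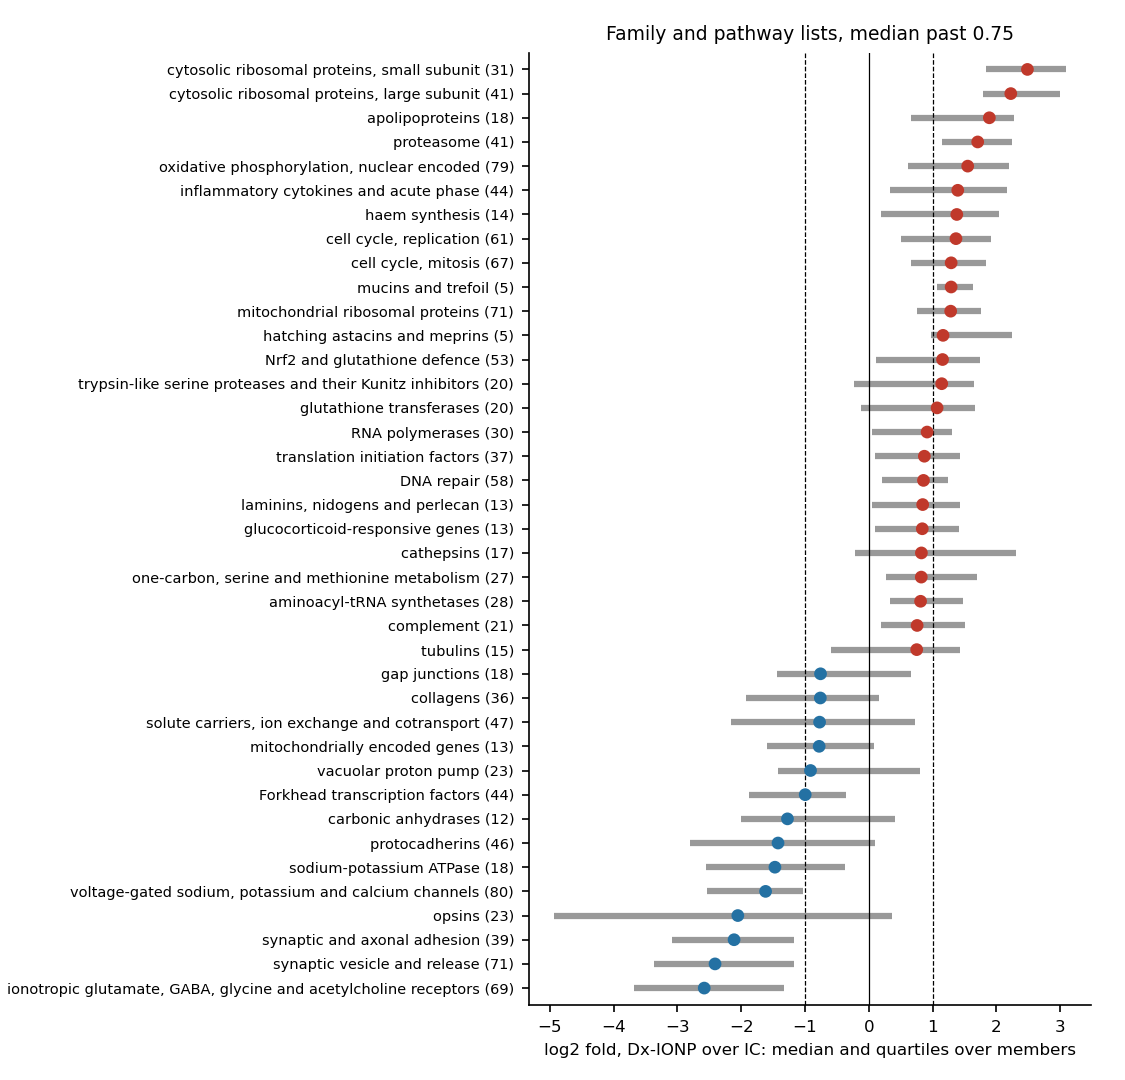
Median log2 fold of Dx-IONP over IC for family and pathway lists whose median lies past 0.75 in either direction (points), with a grey bar from the lower to the upper quartile of the members and the number measured in parentheses; replication histones, at 10.29, are left out for scale. Ribosomal proteins (2.49 and 2.23) lie highest, and transmitter receptors (-2.58) lowest.

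Genes of the proteasome, which breaks down proteins, were mostly higher as well. Of 41 proteasome genes 33 were higher and 2 lower (median 1.71, with 0.46 for Dx-IONP over control and -1.08 for IC). The catalytic subunit PSMB6 had 349.8 CPM in the Dx-IONP, 30.1 in the IC and 108 in the control library and PSMD12, of the regulatory lid, 548, 201 and 309.7 CPM. The exceptions were the core subunit PSMA5 (207, 545 and 293 CPM) and 1 of 2 genes for the activator PSME4 (ENSDARG00000087911, 7.24, 35.3 and 32.6 CPM). Ubiquitin-conjugating enzymes did not go along, with 5 of 36 higher and 9 lower, UBE2H among them (142.9, 701 and 269.8 CPM).

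Medians of the respiratory chain genes differed by where they are encoded. Of 79 nuclear genes 49 were higher and 2 lower (median 1.55), whereas of the 13 mitochondrial genes 2 were higher, 5 lower and 6 neither (median -0.78). The summed level of the mitochondrial genes was nevertheless somewhat higher, with 14626 CPM in Dx-IONP against 11483 in IC. Small accessory subunits were among those farthest up, NDUFS5 with 66.2 CPM in the Dx-IONP, 3.89 in the IC and 18.2 in the control library and atp5mj with 171, 18.9 and 93.8 CPM. The catalytic ATP synthase subunit ATP5F1B had 1938, 647 and 1095 CPM, while its neighbour in the enzyme, ATP5F1C, had 714, 1317 and 407 CPM, high in IC. Of the 2 lower genes, COX4I2 (6.32, 43.4 and 58.6 CPM) is a tissue-restricted form of a cytochrome oxidase subunit and ndufa4b (34.6, 245 and 170.0 CPM) a duplicate. Mitochondrial ribosomal proteins were higher for 46 of 71. In this family Dx-IONP lay at control (-0.03) and IC below it (-1.31).

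RNA handling was mixed. Of 30 RNA polymerase subunits 14 were higher, with POLR2B at 274, 63.5 and 104 CPM, and 1 was lower, the largest subunit POLR2A (104, 228 and 246 CPM). Among 98 splicing genes 28 were higher and 15 lower, beside 24.3% higher and 26.2% lower of all genes. The core particle genes SNRPE (80.5, 7.87 and 36.3 CPM) and SNRPG (105, 16.9 and 79.9 CPM) were on the higher side and the RNA-binding hnrnpa0a (75.01 CPM in the Dx-IONP, 1147 in the IC and 513 in the control library), hnrnpa1a (7.05, 119 and 181 CPM) and SRSF6 (ENSDARG00000016783, 46.7, 308 and 169 CPM) on the lower.

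Genes of dividing cells were mostly higher. Of 61 DNA replication genes 38 were higher and 3 lower (median 1.37), and of 67 mitosis genes 41 and 2 (median 1.29). Dx-IONP lay above control (0.89 for replication) and IC below it (-0.62). The replication clamp PCNA had 1007 CPM in the Dx-IONP, 191 in the IC and 442 in the control library. The flap nuclease FEN1 had 184, 26.2 and 70.9 CPM, and the mitotic kinase AURKB 37.8, 7.22 and 25.4 CPM, the same order of the 3 libraries. The marker mki67 had 331, 229.8 and 318 CPM and was neither. DNA repair genes held 25 higher and 2 lower members of 58.

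Many histone genes were far higher. Replication histones are made in S phase, and their mRNAs end in a stem-loop and mostly lack the poly(A) tail by which this library type selects RNA. Of 18 measured, 17 were higher and none was lower, and 11 of the 12 genes farthest up, among those with a proper symbol and at least 10 CPM in 1 library, were histones. Genes with only a clone or locus name, some of them as far up, were not ranked. The H2A gene hist1h2a7 had 19354 reads in Dx-IONP against 5 in IC and 9 in control, or 408 CPM in the Dx-IONP, 0.0983 in the IC and 0.0967 in the control library. The H2A gene hist1h2a9 had 8481 reads against 0 in IC and 5 in control, at least 3027-fold higher than in IC. With the 0-read members set to such bounds the list's median was 9.87 in place of 10.29. The whole list summed to 3379, 602 and 760 CPM, only 5.61-fold higher. Of the IC sum, 571 CPM came from the linker gene histh1l1 alone. The hist1h2a genes share a name stem, and reads may have been split unevenly between similar copies, so folds of single copies are uncertain. The part of transcripts without a tail in these histone values was not tested. Of 13 variant histones, which replace the replication forms, 3 were higher and 4 lower. The H2A.X genes h2ax2 (87.2, 0.0590 and 0.0107 CPM) and h2ax (170.1, 1.06 and 8.25 CPM) were far higher too, and the replacement histone h3f3a was lower (404, 995 and 427 CPM). The linker histh1l1 had 1163, 571 and 657 CPM, 2.04-fold higher.

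Among genes that answer foreign chemicals, CYP1A1, a target of the aryl hydrocarbon receptor, had 307 CPM in the Dx-IONP, 4.70 in the IC and 22.3 in the control library, 64.8-fold higher with a log2 interval of 5.85 to 6.22. Over the 22 measured genes of this receptor's pathway 7 were higher and 7 lower, beside 24.3% higher and 26.2% lower of all genes. Other cytochromes of the CYP1 family were lower, cyp1c2 with 2.04, 6.82 and 4.43 CPM and cyp1d1 with 4.296, 10.7 and 12.8 CPM. The receptor gene ahr2 had 119, 122 and 72.7 CPM, with lanes in both directions, and NQO1, a shared target of this receptor and Nrf2, 50.9, 22.8 and 43.8 CPM. Across all 60 cytochrome P450 genes 14 were higher and 22 lower, so the higher ones were about as frequent as among all genes (24.3%). The steroid enzyme CYP17A1 (123.2, 23.5 and 11.7 CPM) and cyp2y3 (431, 121.1 and 146 CPM) were higher, and cyp2k19 (0.590, 15.7 and 15.5 CPM) lower. Glutathione transferases, which couple reactive compounds to glutathione, were higher for 10 of 20. The near neighbours gstp1.2 (2043, 189 and 572 CPM) and gstp1.1 (0.632, 11.8 and 10.6 CPM) lay in opposite directions, and reads of such similar genes may have been divided unevenly. MGST1 (ENSDARG00000022165), the microsomal form, had 102.98, 9.16 and 18.7 CPM.

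Genes of Nrf2, which answers oxidants, were higher for 27 of 53 and lower for 4. The lipid peroxide reductase gpx4a had 823 CPM in the Dx-IONP, 105 in the IC and 379 in the control library and the cargo receptor SQSTM1 74.9, 13.14 and 21.9 CPM, but catalase (CAT) was lower (27.4, 55.5 and 187 CPM). In the iron list, 17 of 43 were higher and 8 lower. The ferrous iron carrier slc11a2 had 140.5, 37.995 and 41.3 CPM, and the transferrin receptor tfr1a 82.3, 14.97 and 8.43 CPM, both highest in Dx-IONP. The iron hormone hamp had 0.674, 1.77 and 15.3 CPM, below control in both other libraries. Ferritin heavy chains differed, fth1a with 1223, 553 and 1492 CPM and FTH1 with 7.92, 40.1 and 31.9 CPM. The iron sensor FBXL5 had 59.6, 149 and 81.0 CPM. IC was lowest of the 3 for fth1a and highest for FBXL5 and FTH1. Among metal genes mtbl, a metallothionein-like gene, had 85.97, 1.337 and 5.93 CPM and the copper chaperone atox1 93.9, 13.098 and 98.7 CPM, while the zinc carrier gene slc39a4 had 0.295, 1.55 and 1.14 CPM.

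Cell death and stress lists outside these pathways held members on both sides, beside 24.3% higher and 26.2% lower of all genes. Of 43 p53 and apoptosis genes 20 were higher and 5 lower. The death-promoting pmaip1 had 19.9 CPM in the Dx-IONP, 3.50 in the IC and 8.60 in the control library, while the p53 target cdkn1a, which halts the cell cycle, had 0.442, 1.16 and 1.45 CPM. The interleukin gene il1b had 3.26, 0.551 and 0.569 CPM and the growth factor gene csf1b, for macrophages, 19.96, 3.03 and 3.07 CPM. The signal partner il6st had 65.6, 218 and 61.7 CPM, high in IC. Of 20 antigen presentation genes 9 were higher and 2 lower, and the immunoproteasome subunit PSMB10 (35.9, 5.62 and 11.2 CPM) and mhc1zba (24.4, 95.6 and 21.8 CPM) lay on opposite sides. The family of TRIM, finTRIM and btr genes, which is large in fish, had 31 higher and 21 lower members of 86. The finTRIM gene ftr83 had 1023 reads in Dx-IONP and 0 in both others, at least 365-fold higher than in IC.

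Of 42 heat shock and chaperone genes 12 were higher, 9 lower and 21 neither, beside 24.3% higher and 26.2% lower of all genes. The cytosolic HSPA8 (ENSDARG00000068992) was higher, with 8156 CPM in the Dx-IONP, 2362 in the IC and 3409 in the control library. The subunits CCT8 (394, 109.7 and 225 CPM) and CCT4 (613, 188 and 479 CPM) of the cytosolic folding ring were higher too. HSPA9, the mitochondrial form, was listed at 0 reads in Dx-IONP against 2501 in IC and 3191 in control. Every cell uses this gene, and whether its 0 comes from the estimation of the counts was not tested. HSPA5, of the endoplasmic reticulum, had 172, 179 and 339.6 CPM and was neither. The stress-induced hsp70.3 had 20.4, 2.56 and 16.2 CPM, with IC low. Unfolded protein response genes held 7 higher and 3 lower members of 34. Of 37 hypoxia genes 5 were higher and 8 lower, again beside 24.3% and 26.2% of all genes. The hypoxia target NDRG1 had 301, 828 and 237 CPM.

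Genes of the lysosome, where nanoparticles are broken down, lay on both sides, beside 24.3% higher and 26.2% lower of all genes. Of 23 subunits of the proton pump that acidifies lysosomes and synaptic vesicles 10 were lower and 4 higher (median -0.91). The 2 abundant genes for the ring subunit ATP6V0C differed, ENSDARG00000036577 with 29.3 CPM in the Dx-IONP, 866 in the IC and 514 in the control library and ENSDARG00000057853 with 418, 527 and 583 CPM. So did those for ATP6V1B2, ENSDARG00000013443 with 50.02, 7.36 and 20.9 CPM and ENSDARG00000043465 with 34.2, 163 and 168 CPM. Cathepsins, the lysosomal proteases, were higher for 7 of 17 and lower for 2, with CTSD at 258, 127 and 290.0 CPM and ctslb, a cathepsin L of the hatching gland, at 38.9, 1.28 and 0.140 CPM. The cholesterol-binding NPC2 (ENSDARG00000090912) had 259.6, 72.0 and 212 CPM. Autophagy genes were mostly neither (24 of 35).

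Carriers of each kind held members on both sides, as all genes did (24.3% higher and 26.2% lower). Of the amino acid carriers, 13 of 55 were higher and 21 lower. The glycine carrier of neurons SLC6A5 had 18.5, 259 and 145 CPM and slc38a5b 311, 133 and 82.8 CPM. The sodium, potassium and chloride carrier slc12a2 (498 CPM in the Dx-IONP, 108 in the IC and 104 in the control library) was higher. The neuronal bicarbonate carrier slc4a10a (6.28, 265 and 163 CPM) was lower. The sugar carrier slc2a11b, which pigment cells use, had 542, 72.5 and 70.5 CPM. The ADP/ATP carrier SLC25A5 had 2969.8, 543 and 1849.5 CPM. SLC25A32 (ENSDARG00000089791), a mitochondrial folate carrier, had 24.4, 274 and 32.01 CPM, another gene for which the IC library stood apart. The liver water and glycerol channel aqp9b had 1.28, 52.1 and 62.7 CPM.

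In intermediary metabolism the methionine cycle gene AHCY (1807 CPM in the Dx-IONP, 296 in the IC and 857 in the control library) and the nucleotide synthesis genes UMPS (43.8, 4.96 and 17.2 CPM) and ADSL (70.5, 8.12 and 21.05 CPM) were higher, as were 12 of 27 one-carbon genes. Glycolysis showed tissue forms on opposite sides. GAPDH (7611, 2687 and 1302 CPM) and LDHB (909.8, 288 and 664 CPM) were higher, the neuronal forms eno2 (9.25, 52.8 and 136 CPM) and ALDOC (ENSDARG00000057661, 0.190, 2.28 and 7.64 CPM) lower. Among enzymes that lengthen fatty acids, ELOVL4 (ENSDARG00000027495), which retina and brain use, had 3.90, 149 and 146 CPM and ELOVL7 180.3, 31.8 and 26.9 CPM. Cholesterol synthesis was mostly level (18 of 25 neither), with the lipoprotein receptor ldlra at 8.97, 50.2 and 21.4 CPM. In the citrate cycle SUCLG1 was higher (122.6, 29.4 and 73.4 CPM), and pdha1a, which feeds it with pyruvate carbon, was lower (184, 612 and 223 CPM). Of 46 genes of fatty acid oxidation and the peroxisome 38 were neither, and the lipid sensor genes pparaa (14.5, 2.58 and 4.28 CPM) and PPARA (7.33, 1.63 and 1.47 CPM) were higher.

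Signalling and transcription factor families held members far apart in both directions, beside 24.3% higher and 26.2% lower of all genes. Of 38 nuclear receptors 8 were higher and 13 lower. The glucocorticoid receptor NR3C1 had 96.7 CPM in the Dx-IONP, 18.3 in the IC and 11.2 in the control library. In the list of 13 glucocorticoid genes, which holds this receptor too, 6 were higher and 0 lower, with KLF9 at 14.3, 2.85 and 6.36 CPM and TAT at 5.54, 0.511 and 2.14 CPM. NR2F2, a factor of veins and forebrain, had 117, 618 and 329 CPM. Forkhead factors were lower for 22 of 44, foxo3a with 58.6, 376 and 150.1 CPM and the forebrain factor foxg1b with 12.4, 72.9 and 58.5 CPM. The epidermal factor KLF4 had 9.86, 0.983 and 0.752 CPM. Among Sox factors sox12, which neurons use, was lower (33.5, 232 and 157 CPM). Immediate early genes divided: ier2b was higher (57.5, 3.03 and 9.83 CPM) and the neuronal activity genes NR4A2 (1.37, 15.9 and 23.6 CPM) and EGR3 (1.39, 15.8 and 11.7 CPM) were lower. Of 55 Wnt genes 18 were higher and 10 lower, with the ligands WNT9B (33.7, 4.88 and 3.70 CPM) and wnt4b (2.97, 35.1 and 27.1 CPM) on opposite sides. The growth factor receptor FGFR2 had 287, 848 and 198 CPM. SLIT3 had 149, 22.99 and 32.7 CPM with Dx-IONP lanes from 52.3 to 197, and SEMA3B, another guidance cue, 0.211, 19.9 and 6.93 CPM. Clock genes were lower for 11 of 28, among them PER1 (ENSDARG00000012499, 28.2, 73.1 and 39.9 CPM) and dbpa (1.73, 13.9 and 8.43 CPM), and higher for 3, tefa with 431, 213 and 213 CPM. The hour of sampling is not given in the labels.

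Set beside control, the lists at least 2-fold apart took several arrangements. The vesicle, receptor and axonal adhesion lists were low in Dx-IONP with IC near control, and photoreceptors were low in Dx-IONP with IC at -0.77. Exocrine pancreas genes were low in both, at -3.40 in Dx-IONP and -1.79 in IC. Ribosomal proteins, mitochondrial ribosomal proteins, nuclear respiratory genes and apolipoproteins were low in IC (-1.87 to -1.31). In Dx-IONP their medians lay nearer control (-0.49 to 0.37). Replication, mitosis and proteasome genes lay above control in Dx-IONP (0.46 to 0.89) and below it in IC (-1.08 to -0.55). These values border on those of the lists before, so the limit between the 2 arrangements is not sharp. Cartilage lay above control in both. Epidermis, erythrocytes and mucins were high in Dx-IONP with IC near control. The Dx-IONP and IC values share the control library, so they are given side by side and were not tested against each other.

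**Figure D4:**
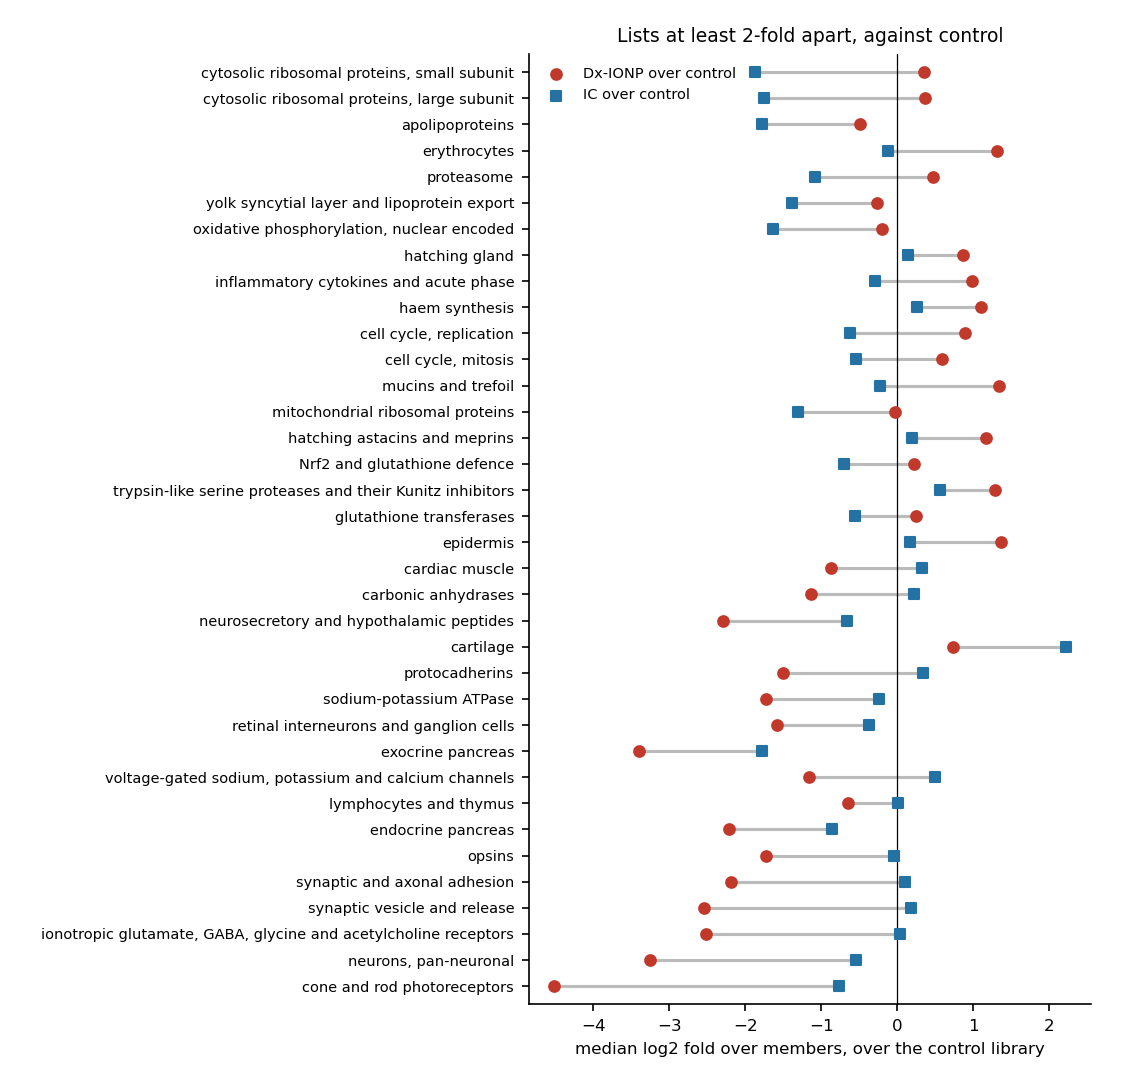
Median log2 fold over control of Dx-IONP (red circles) and IC (blue squares) for lists whose medians differ at least 2-fold between the 2 libraries; replication histones are left out for scale. Synaptic vesicle genes lie at -2.54 in Dx-IONP and 0.17 in IC, small-subunit ribosomal proteins at 0.35 and -1.87, and cartilage at 0.73 and 2.21.

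**Figure D5:**
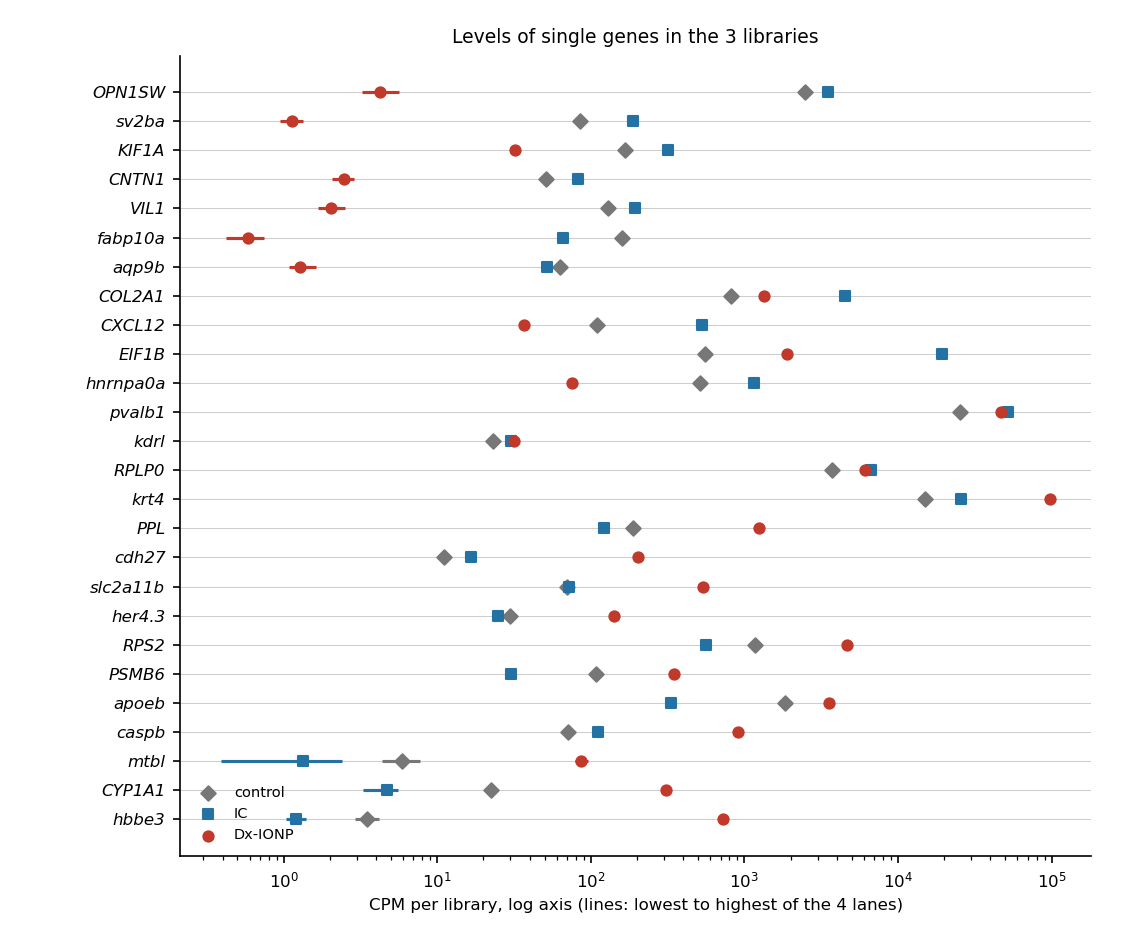
Level of single genes described above in the Dx-IONP (red circles), IC (blue squares) and control (grey diamonds) libraries, in CPM on a log axis, with lines from the lowest to the highest lane. From OPN1SW to hnrnpa0a the Dx-IONP library lies below IC, pvalb1, kdrl and RPLP0 lie together, and from krt4 to hbbe3 the Dx-IONP library lies above IC.

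Among genes with a proper symbol and at least 10 CPM in 1 library, those farthest apart were, on the lower side, HSPA9, OPN1SW, 1 of 2 genes named DES (ENSDARG00000005221), MYO10, opn1mw1, PRPH2 (ENSDARG00000038018), NXNL1, gja13.1, sv2ba, CPLX4, serpinf2a and GNAT2. Of these 12, 7 belong to photoreceptors or synapses. DES, a muscle filament, had 0 reads in Dx-IONP against 802 in IC and 658 in control, but its IC lanes ranged from 9.92 to 19.4 CPM. The motor MYO10 had 0, 560 and 635 reads in the same order. On the higher side, by the same choice of genes, the 12 were 11 histones and krt18a.1, a keratin, with 2150 reads in Dx-IONP against 0 in IC and 6165 in control, so the IC library alone was listed at 0. Elsewhere the Dx-IONP library alone held reads: cldn7b, a claudin, had 1814 reads there and 0 in both others, at least 648-fold higher than in IC. At 10 CPM or more in 1 library, 43 genes had 0 reads in IC and 3 had 0 in Dx-IONP.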

How the data were processed

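Whole larvae were measured by poly(A) RNA sequencing on a NextSeq 500. The deposited table holds estimated counts per gene, whole numbers made by the authors, and the tools named in the submitters' processing notes, without their roles, are Salmon 1.6.0, DESeq2 1.34.0, FastQC and R 4.1.2, with the build GRCz11. Salmon divides reads among similar transcripts, so values of near-identical genes are uncertain. The 4 lanes of each library were summed, and lane values of a gene scattered more than counting error gives, with a chi-square per degree of freedom with a median of 0.981 in Dx-IONP and 0.933 in IC, where counting error alone gives 0.789. The means were 2.43 and 1.79, where counting error gives 1, and 900 of 15570 and 608 of 16125 genes lay above 5, so counting intervals are too narrow for such genes. The deposited counts were scaled by TMM over the 3 libraries (edgeR 4.0.16, R 4.3.3), and CPM are per 1000000 scaled reads. Factors were 0.857 for Dx-IONP, 1.05 for IC and 1.11 for control. Log2 folds carry a prior count of 2. Intervals are exact conditional binomial (Clopper-Pearson, scipy 1.17.1) and cover counting error only. Where a library had 0 reads, the fold is a bound against 3 counts in that library. CPM is not divided by gene length, so levels are not compared between genes, and sums over a list weigh abundant members. The call was also run on simulated counts that held counting error only, so that run says nothing on the spread between pools or the extra scatter between lanes. Of the 2124 entries in lists of gene names, 356 could not be matched, and families were taken by symbol.

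Named are the 12 highest and lowest genes with at least 10 CPM in 1 library, a symbol that is not a clone or locus name and lanes in 1 direction, up to 3 members farthest apart in each direction and most abundant in each list, and a set of readouts, and some of these genes are not reported here. The comparison, the lists and their names were chosen with earlier results of these data known. Chosen after their values were seen were ahr2, ANPEP (ENSDARG00000103878), atp1a3a, ATP6V1B2 (ENSDARG00000043465), CAT, CCT4, CCT8, cdh4, crx, cyp1c2, cyp1d1, CYP7A1, dlb, EFNB2 (ENSDARG00000074050), eno2, FABP2, FBXL5, foxg1b, GRIA2 (ENSDARG00000070173), krt5, LDHB, MYH11 (ENSDARG00000009782), NEUROD4, NQO1, slc38a5b, SLC6A19 (ENSDARG00000091560), SLC6A5, SNRPG, SRSF6 (ENSDARG00000016783) and st14a.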

Additional observations from a re-analysis of the deposited data

How the results depend on the processing

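The counts of higher and lower genes stayed within 1.5 times of the main ones under every other scaling and prior count. Among these scalings was a run computed without histone, keratin and mitochondrial genes, which still entered the calls. No gene called higher was called lower under any of them, or the reverse. Such a reversal could hardly occur, since a new scaling shifts all log2 folds by nearly the same small amount. Leaving out 1 lane of every library gave 4002 to 4040 higher and 4312 to 4332 lower genes, and 36 to 40 lists past 2-fold. Among genes of at least 10 CPM, 2693 were lower, because fewer genes (11198) were tested. At least 4-fold apart were 1267 higher and 2137 lower genes. The intestine median turned from -0.94 to 1.07 among genes of at least 10 CPM, where fewer of its members were measured. Scaling to total reads moved the median of all genes to -0.26, and 35.5% of the genes called were then higher, against 48.2%. Under it 12 list medians passed 2-fold that had not before (lens, myelin, smooth muscle, intestine, bone, germ line, mitochondrially encoded genes, the vacuolar proton pump, gap junctions, collagens, forkhead factors and ion exchangers). It took 8 list medians below 2-fold: epidermis (0.73), Nrf2 (0.86), mitosis (0.99), mitochondrial ribosomal proteins (0.99), glutathione transferases (0.77), mucins (0.99), trypsin-like proteases (0.85) and hatching astacins (0.87). Of the genes named, 11 were then no longer at least 2-fold higher (AGR2, COL1A2, CTSD, MPEG1, NQO1, cdh1, cldne, fth1a, histh1l1, slc38a5b and tefa), and ATP5F1C and nppb became at least 2-fold lower. Without the filter on low values, 7 list medians no longer passed 2-fold, among them lymphocytes (-0.57), exocrine pancreas (-0.79) and opsins (-0.83), where members under 1 CPM entered. The forkhead median lay at the limit and passed it under most alternatives. No paired analysis was possible because each condition has 1 library and no test was made. The planned medians by protein length and the motif search in promoters were not run, since they need sequence tables that were not used here. With 1 pool of larvae per condition, the spread between pools is unknown, and depth limits only the scarce genes.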

Other observations

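Among the 43 genes listed at 0 reads in IC and at least 10 CPM in Dx-IONP were genes that most tissues use, and several of them had 0 reads in control too. The signalling kinase JAK1 had 33.4 CPM in the Dx-IONP, 0 in the IC and 0 in the control library, the mitochondrial carboxylase PCCA 21.9, 0 and 0 CPM and the membrane protein gene stom 36.01, 0 and 0 CPM. Of the 2 genes for the adiponectin receptor ADIPOR1, ENSDARG00000002912 had 35.3, 0 and 0 CPM and ENSDARG00000042717 109, 56.8 and 42.4 CPM. The reverse was seen for HSPA9, a chaperone of every mitochondrion, with 0, 49.2 and 34.3 CPM. The 2 genes for BMPR1A, a receptor for bone morphogenetic proteins, had 32.3, 0 and 4.05 CPM (ENSDARG00000019728) and 53.4, 49.1 and 26.8 CPM (ENSDARG00000105045). Except for HSPA9 and BMPR1A (ENSDARG00000019728), which the naming rule had picked, these genes were chosen after their values were seen. Their levels are as the table lists them, the 0 values are estimated counts, and whether they come from the estimation or from an absence of RNA was not tested.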
